A study of Ovis aries with 15 samples.

Results

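Kidney RNA of sheep fed aflatoxin B1 together with curcumin (AFB1_CUR) was compared with kidney RNA of control sheep (CON). The 10 libraries, 5 in each group, were chosen by their group label from the 15 libraries of the series. The feeding trial held 18 males at 4 months of age, a cross of Dorper and Small-tailed Han, with 6 animals a group. CON sheep received a total mixed ration, and AFB1_CUR sheep received that ration for 21 days with AFB1 (500 µg/kg dry matter) and CUR (800 mg/kg dry matter) added. The sheep shared pens. Which libraries came from the same pen is not given, and no test took pens into account. Kidneys of 5 animals a group were sequenced, each library from a portion of whole kidney. The other 5 libraries are from sheep fed AFB1 alone. In the comparison of AFB1_CUR with CON by itself, the part of CUR and the part of AFB1 cannot be told apart. The named genes are therefore also compared with AFB1 alone near the end. No group received CUR alone, so an effect of CUR without AFB1 cannot be seen.

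AFB1 is a mold toxin that cytochrome P450 enzymes turn into a reactive epoxide, which binds DNA and protein and is cleared by glutathione S-transferases. Curcumin is a plant phenol known as an antioxidant and as an activator of NRF2, the transcription factor of antioxidant genes that KEAP1 holds back. The kidney cortex consists largely of proximal tubule, which reabsorbs sugars, phosphate and peptides and secretes organic anions and cations.

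Total counts ranged from 50255295 to 68747047 in CON (median 62643688) and from 55108041 to 65706914 in AFB1_CUR (median 56549141). Each library was kidney by its markers. The proximal tubule list, given as the mean log2(FPKM + 1) of 13 genes, lay between 8.31 and 9.08 in CON and between 8.34 and 8.87 in AFB1_CUR replicates 1, 3, 4 and 5. In AFB1_CUR replicate 2 it was 7.56. The same library held the highest levels of the lists for leukocytes and fibroblasts. Its pan-leukocyte level was 5.34 against 2.48 to 3.81 in CON and 3.32 to 3.70 in the other AFB1_CUR libraries. Its B cell level was 4.09 against 0.33 to 0.85 and 0.59 to 0.73. FPKM of PTPRC, the leukocyte surface phosphatase CD45, was 42.1 there and at most 12.1 in the other 9 libraries. FPKM of the B cell antigen MS4A1 was 46.3 there and at most 0.983 elsewhere. Mitochondrial transcripts took 8.16% of its counts and 12.7% to 17.9% in the other 9. On the first principal component, which held 35.2% of the variance of log2 expression, AFB1_CUR replicate 2 lay at 71.0 and the other 9 libraries between -44.1 and 10. The total counts of calls are therefore given with and without this library, as are the counts of calls in the gene lists described and many of the single values. In whole tissue, more cells of a type and more RNA per cell cannot be told apart.

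**Figure D1:**
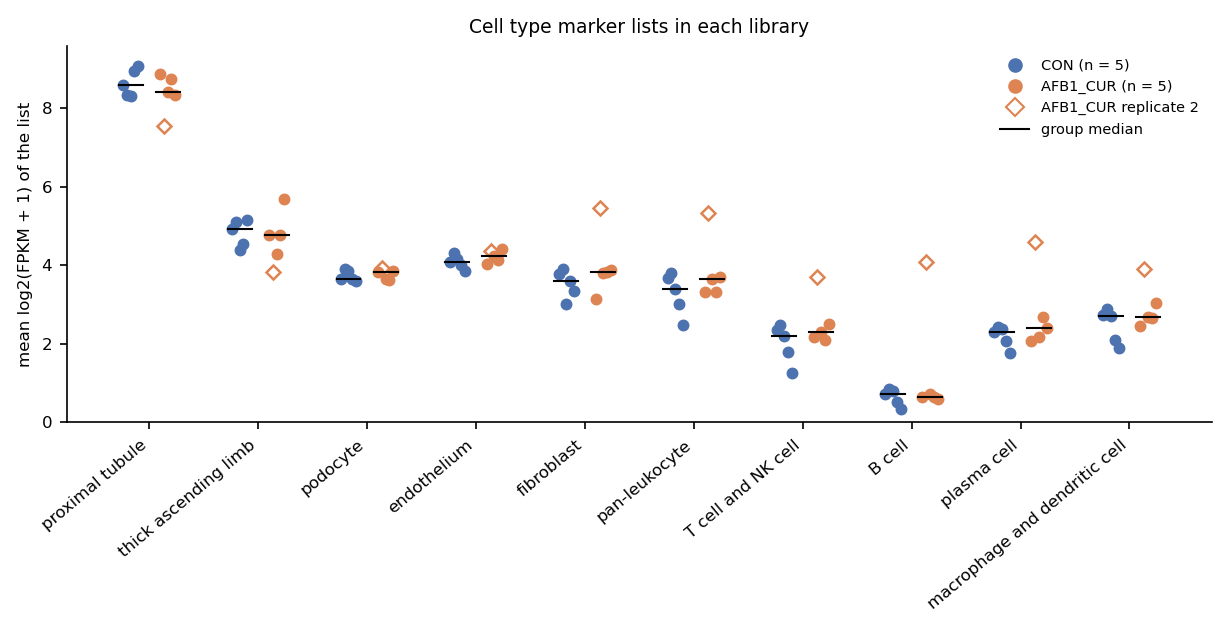
Mean log2(FPKM + 1) of 10 cell type marker lists in each of the 10 libraries (vertical axis), with CON in blue, AFB1_CUR in orange, AFB1_CUR replicate 2 as an open diamond and group medians as black bars. The diamond lies above all other points for the fibroblast and the 5 leukocyte lists and below them for proximal tubule (7.56) and thick ascending limb (3.83).

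Of 12839 genes with FPKM of at least 1 in at least 5 of the 10 libraries, 130 were called higher in AFB1_CUR (1.01% of the genes tested) and 74 were called lower (0.576%). A call means an unadjusted p under 0.05 in edgeR's quasi-likelihood test and a fold change above 1.5. No gene passed a Benjamini-Hochberg adjusted p of 0.05, and the smallest adjusted p in edgeR was 0.780. Unadjusted p was under 0.05 for 736 genes, or 5.73% of those tested. DESeq2 gave an adjusted p under 0.05 to 1 gene, PSMG3, a proteasome assembly factor named after its values were seen. PSMG3 was at FPKM of 42.9 to 47.8 in CON and 32.6 to 42.6 in AFB1_CUR, so the groups did not overlap, and its log2 fold change of -0.40 ± 0.08 by edgeR was short of a call. The calls below are therefore a ranking of these libraries by size and spread, and none holds after correction for the number of genes tested.

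Leaving out AFB1_CUR replicate 2 left 49 genes called higher (0.382%) and 68 called lower (0.530%), with 531 genes at an unadjusted p under 0.05 and a smallest adjusted p of 0.959 by edgeR. Of the genes called higher, 33 were shared by both fits, which is 25.4% of the list with the library and 67.3% of the list without it. Of the genes called lower, 38 were shared, or 51.4% and 55.9%. The level was highest in AFB1_CUR replicate 2 for 111 of the 130 genes called higher, and it was lowest there for 21 of the 74 called lower. In the shared lists, the share kept without the library was thus lower for genes called higher (25.4%) than for genes called lower (51.4%). The total moved by over 1.5 times also without AFB1_CUR replicate 1 (331 genes called) and without AFB1_CUR replicate 4 (310).

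**Figure D2:**
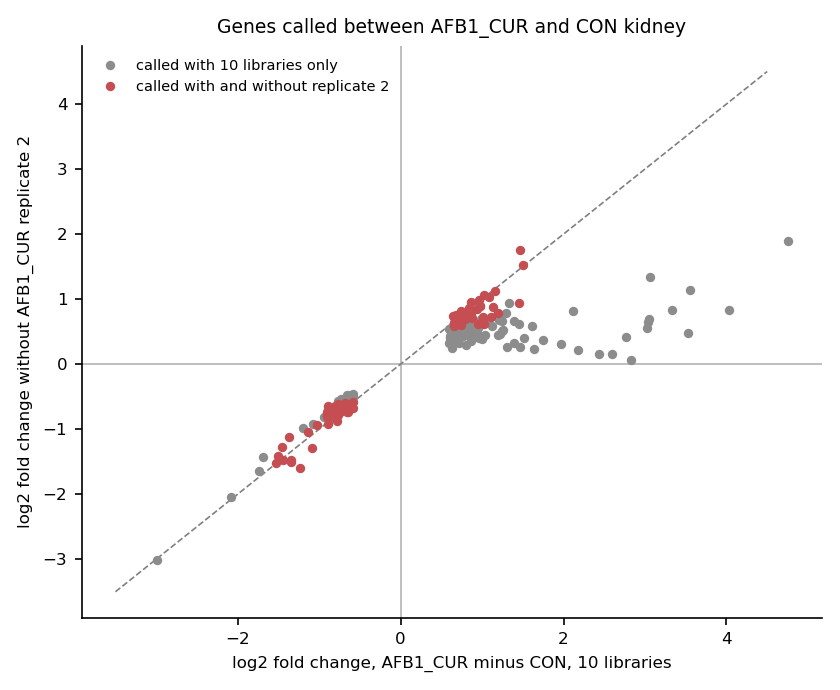
Log2 fold change (AFB1_CUR minus CON) of the 204 called genes in the fit of 10 libraries (horizontal axis) against that without AFB1_CUR replicate 2 (vertical axis), with genes called in both fits in red, the others in grey, and equality as a dashed line. Genes called lower lie along the line, whereas the points past 2, up to 4.76, drop to between 0.06 and 1.9 without the library.

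The 10 genes with a symbol and the smallest p among those called higher in both fits serve varied roles. GPM6B, a proteolipid family membrane glycoprotein (chromosome X, 11932241 to 12088299), had FPKM of 1.96, 2.95, 2.22, 1.87 and 1.9 in CON replicates 1 to 5. In AFB1_CUR replicates 1 to 5 it was 3.19, 6.94, 3.12, 4.46 and 3.65. The groups did not overlap, and the log2 fold change was 0.88 ± 0.20 (SE; 95% interval 0.45 to 1.32; adjusted p = 0.780 by edgeR), or 0.71 without AFB1_CUR replicate 2. Groups that do not overlap in normalized counts were found for 51 genes in the higher direction (0.397% of those tested) and 52 in the lower (0.405%), of which 9 and 6 were also called.

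SCPEP1, a serine carboxypeptidase (chromosome 11, 7518442 to 7540656), had FPKM of 25.3, 28.8, 25.5, 21.3 and 16.3 in CON and 37.0, 36.6, 43.8, 44.7 and 30.9 in AFB1_CUR, so every AFB1_CUR library lay above every CON library. The log2 fold change was 0.66 ± 0.16, and 0.72 without AFB1_CUR replicate 2. The call was lost without CON replicate 5 (0.56) or AFB1_CUR replicate 4 (0.58), where the fold change came under 1.5. The small GTPase gene NRAS likewise did not overlap, at 0.883 to 2.05 in CON and 2.24 to 4.07 in AFB1_CUR, for a log2 fold change of 0.96 ± 0.25, or 0.99 with AFB1_CUR replicate 2 left out.

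APOD, the lipid-binding apolipoprotein D, had FPKM of 24.1, 34.3, 33.1, 30.2 and 21.9 in CON and 29.0, 81.9, 53.9, 86.5 and 47.7 in AFB1_CUR. AFB1_CUR replicate 1 lay within the CON range and the other 4 above it, for a log2 fold change of 0.98 ± 0.26 and 0.90 without AFB1_CUR replicate 2. EDNRB, the endothelin receptor type B, was at 5.79 ± 1.55 in CON and 9.55 ± 2.00 in AFB1_CUR (mean FPKM ± SD, n = 5 each). The estimate was 0.65 ± 0.17 on the log2 scale, 0.59 without AFB1_CUR replicate 2 and 0.54, under the fold limit, without CON replicate 4. MMRN1, the platelet and endothelial protein multimerin 1, was at 0.914 ± 0.136 and 1.91 ± 0.718, with a log2 fold change of 0.97 ± 0.24 (0.89 without AFB1_CUR replicate 2).

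The 4 other genes of this set make or modify glycans, regulate transcription or bind ferritin. The polysialyltransferase gene ST8SIA4 had a log2 fold change of 1.01 ± 0.30 and the heparan sulfate 6-O-sulfotransferase gene HS6ST2 of 1.09 ± 0.33. CBFB, the partner subunit of the RUNX factors, had one of 0.74 ± 0.23, with its highest values in AFB1_CUR replicates 1 and 2 (6.76 and 8.35 against 2.30 to 3.49 in CON). SCARA5, a ferritin scavenger receptor, had one of 1.11 ± 0.35 that rested in part on AFB1_CUR replicate 2 (10.7 against 2.77 to 4.43 in the other AFB1_CUR libraries) and was 0.73 without it. Without AFB1_CUR replicate 2, ST8SIA4 was at 0.73, HS6ST2 at 1.03 and CBFB at 0.60 on the log2 scale, all still called. TAF13, a subunit of the general transcription factor TFIID, did not overlap between the groups (2.76 to 4.17 and 4.31 to 9.01). The log2 fold change of 0.70 ± 0.23 was 0.64 without AFB1_CUR replicate 2, and 0.50 and no longer called without AFB1_CUR replicate 1.

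**Figure D3:**
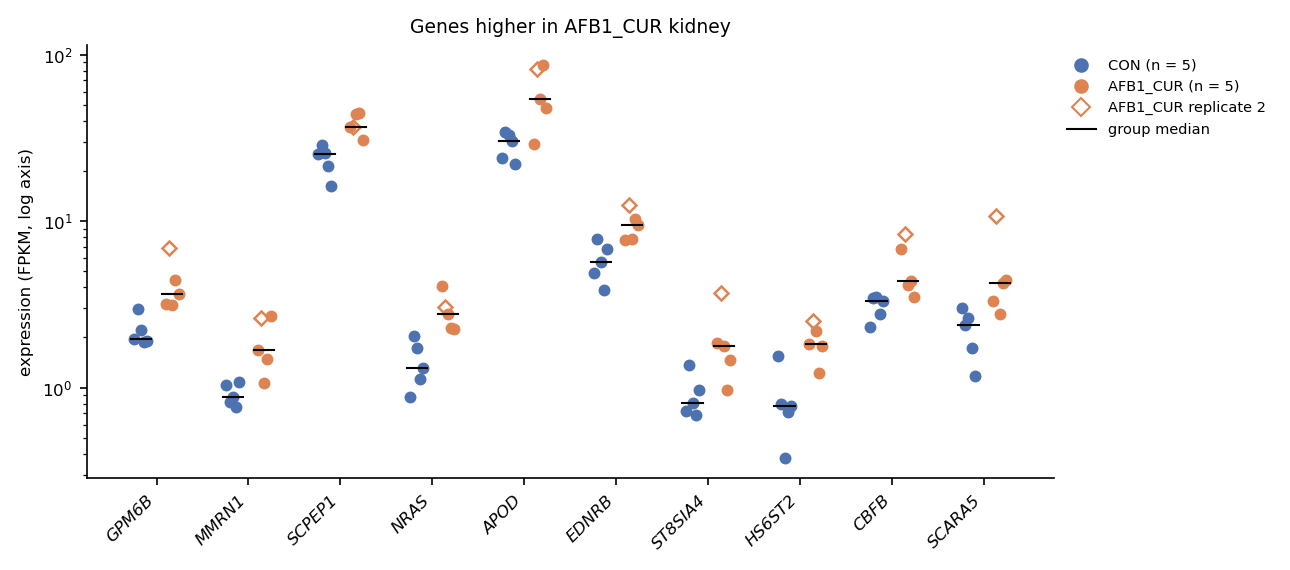
FPKM (log axis) of 10 genes called higher in AFB1_CUR with and without AFB1_CUR replicate 2, in each CON (blue) and AFB1_CUR (orange) library, with AFB1_CUR replicate 2 as an open diamond and black bars for group medians. GPM6B, SCPEP1 and NRAS show no overlap of the groups, whereas single libraries cross in the others.

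ANPEP, SLC34A3 and SLC47A2 were the only genes called lower in their lists, which were the renin-angiotensin system (1 of 11 tested), vitamin D, calcium and phosphate regulation (1 of 16) and drug transporters (1 of 17). In the fit without AFB1_CUR replicate 2, 1 member of the first list and 0 of the other two were called. ANPEP, aminopeptidase N, a membrane peptidase (chromosome 18, 20514993 to 20531871), had FPKM of 87.1, 97.8, 89.5, 156 and 218 in CON. In AFB1_CUR it was 87.6, 52.4, 66.4, 38.9 and 62.4. Only AFB1_CUR replicate 1 reached the lowest CON value, and CON replicates 4 and 5 were the highest. The log2 fold change was -1.14 ± 0.31 (95% interval -1.83 to -0.46; adjusted p = 0.780 by edgeR) and -1.05 without AFB1_CUR replicate 2. Leaving out any 1 library kept the call.

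SLC34A3, the sodium-phosphate cotransporter NaPi-IIc, was at 84.4, 81.1, 81.9, 100.5 and 76.0 in CON and at 61.7, 35.6, 63.4, 76.0 and 34.2 in AFB1_CUR. The highest AFB1_CUR library came close to the lowest CON library, and the log2 fold change was -0.70 ± 0.25. It was -0.54 without AFB1_CUR replicate 2 and -0.56 without AFB1_CUR replicate 5, both short of the fold limit. SLC47A2, the proton-coupled exporter of organic cations MATE2, was at 262 ± 53.7 in CON and 182 ± 38.0 in AFB1_CUR (mean FPKM ± SD over 5 libraries a group). With an estimate of -0.59 ± 0.21 on the log2 scale it lay at the limit of a call, and was called under only 7 of 20 alternative settings. It missed the call without CON replicate 1 (-0.54), 3 (-0.49) or 4 (-0.56) and without AFB1_CUR replicate 2 (-0.50), 4 (-0.55) or 5 (-0.52).

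The proximal tubule markers are described as a list, without a set test. None of 13 was called, and all 13 estimates were below 0 with AFB1_CUR replicate 2 (median -0.27), beside -0.00 over all genes tested. Without that library 2 of 13 were above 0, and the median was -0.08. LRP2, the endocytic receptor megalin, had a log2 fold change of -0.16 with and 0.03 without AFB1_CUR replicate 2. The brush border phosphate transporter SLC34A1 had one of -0.18 and -0.08.

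Other genes called lower in both fits have varied roles. RNASE12, a ribonuclease A family member (chromosome 7, 24789480 to 24794074), was at 13.2, 7.74, 9.04, 6.60 and 7.09 in CON and at 5.38, 3.77, 2.91, 5.75 and 4.47 in AFB1_CUR. The groups did not overlap, the log2 fold change was -1.03 ± 0.26 (-0.93 without AFB1_CUR replicate 2), and the call held under 20 of 20 alternative settings. SULT2B1, which sulfates cholesterol and other sterols, was at 7.51, 7.51, 9.76, 4.25 and 1.42 in CON and at 3.34, 2.90, 2.08, 1.80 and 1.58 in AFB1_CUR. CON replicate 5 was the lowest of the 10 libraries, so the groups overlapped, and the log2 fold change was -1.44 ± 0.43 (-1.47 without AFB1_CUR replicate 2). The hepatic asialoglycoprotein receptor subunit gene ASGR2 had a log2 fold change of -0.90 ± 0.32, or -0.74 without AFB1_CUR replicate 2 (10 ± 3.36 in CON and 5.54 ± 2.33 in AFB1_CUR, mean FPKM ± SD). Of 10 tested hepatocyte markers, 0 were called by edgeR with or without that library, and 3 estimates were above 0 in both fits (medians -0.37 and -0.19). With 10 libraries, 1 was called lower by DESeq2 and with a replicate block, 2 by limma and by voom, and 4 with no filter or filterByExpr.

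BNIP3, a mitochondrial protein of mitophagy that hypoxia induces, was at 111, 87.0, 87.3, 89.2 and 55.4 in CON and at 61.3, 69.6, 52.7, 57.6 and 59.6 in AFB1_CUR. The AFB1_CUR libraries were tightly grouped, and CON replicate 5 lay among them. The log2 fold change of -0.59 ± 0.16 was at the limit of the fold rule. It missed the call without CON replicate 1 (-0.47), CON replicate 4 (-0.57), AFB1_CUR replicate 3 (-0.56) or AFB1_CUR replicate 5 (-0.58). Of 16 tested hypoxia response genes BNIP3 was the only one called lower and PFKFB3, which makes the activator of phosphofructokinase, the only one called higher. Leaving out AFB1_CUR replicate 2 left 1 called lower and 0 higher. PFKFB3 had a log2 fold change of 0.69, or 0.42 and no call without AFB1_CUR replicate 2.

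The remaining genes of the set called lower were UBXN11 (log2 fold change -0.65 ± 0.18), OVCH1 (-0.77 ± 0.22), SIDT1 (-0.76 ± 0.23), BEX4 (-0.75 ± 0.23) and FARP2 (-0.59 ± 0.19). All 5 stayed called without AFB1_CUR replicate 2. UBXN11 lost the call without CON replicate 1 (-0.54) or CON replicate 2 (-0.58). FARP2 lost it without any 1 of CON replicates 1 (-0.54), 2 (-0.58) and 3 (-0.55) or AFB1_CUR replicates 1 (-0.53), 3 (-0.51) and 4 (-0.57). Among loci without a symbol, LOC114110432 had the smallest p of the called genes (0.000626 before adjustment, adjusted p = 0.780 by edgeR). Its FPKM was 6.71 to 7.96 in CON and 3.07 to 5.59 in AFB1_CUR, for a log2 fold change of -0.77 ± 0.16. LOC121816057, described as similar to a subunit of the nascent polypeptide-associated complex, was at 16.6 to 34.8 in CON and at 2.50 to 15.7 in AFB1_CUR. Its log2 fold change was -1.37 ± 0.51, but reads of such a locus may be shared with near-identical copies, so its level is uncertain. LOC105610782 had a log2 fold change of -0.81, and in the other direction LOC101102169, described as a zinc finger protein, had 0.81. LOC101108647, an immunoglobulin lambda-like locus, had 0.84 and lost the call without CON replicate 4 (0.72) or AFB1_CUR replicate 3 (0.81). Reads of immunoglobulin loci can be split among near-identical copies, and its level is likewise uncertain.

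**Figure D4:**
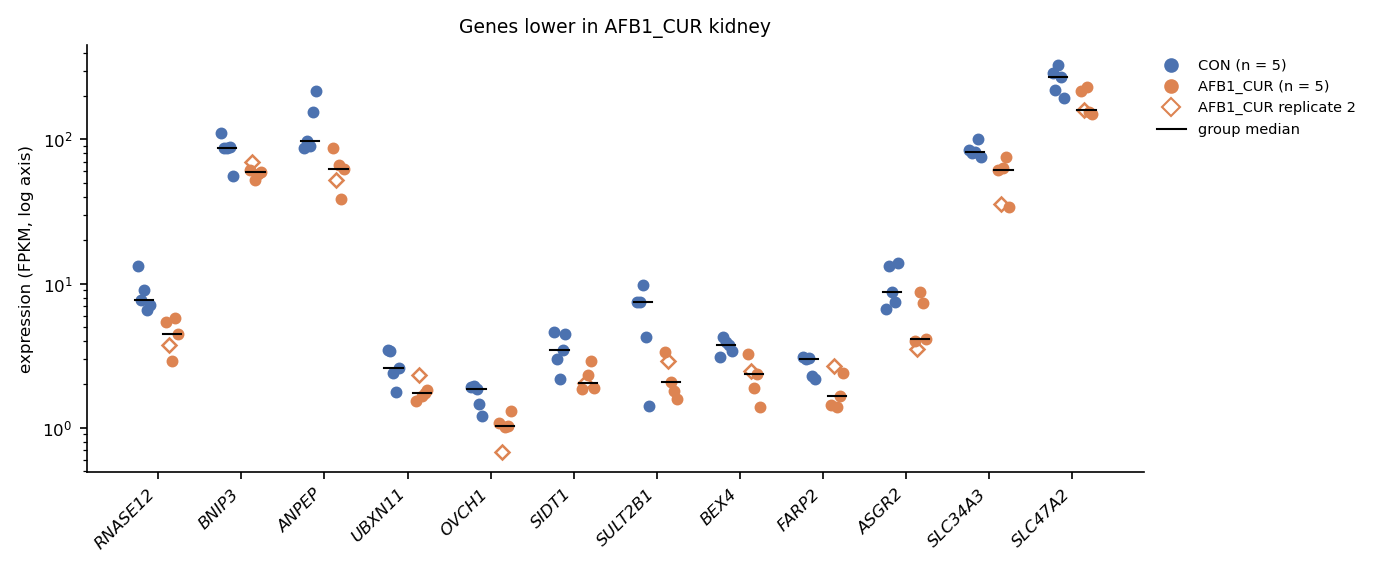
FPKM (log axis) of 12 genes called lower in AFB1_CUR, in each CON (blue) and AFB1_CUR (orange) library, with AFB1_CUR replicate 2 as an open diamond and black bars for group medians. RNASE12 shows no overlap, and AFB1_CUR replicate 2 lies within or near the range of the other AFB1_CUR libraries for most of the genes.

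Transcripts of NRF2 and its targets showed no common change. NFE2L2, which encodes NRF2, was at 56.0 ± 7.58 in CON and 67.2 ± 11.6 in AFB1_CUR (mean FPKM ± SD, n = 5 each), with a log2 fold change of 0.19 (95% interval -0.09 to 0.46). Its repressor KEAP1 was at 16.9 ± 0.941 and 16.7 ± 0.821, a log2 fold change of -0.09 (-0.26 to 0.08). HMOX1, the heme oxygenase, had 0.21 (-0.20 to 0.62) and NQO1, the quinone reductase, 0.11 (-0.23 to 0.46). Of 23 list members tested, 0 were called higher and 1 was called lower, with 8 estimates above 0 and a median of -0.07. When AFB1_CUR replicate 2 was left out, 0 were called, 10 were above 0 and the median was -0.05. The 1 called was OSGIN1, an NRF2-responsive growth inhibitor, at 68.1, 206, 137, 61.9 and 61.0 in CON and at 34.3, 35.2, 41.2, 108 and 39.5 in AFB1_CUR. AFB1_CUR replicate 4 lay within the CON range and the other 4 AFB1_CUR libraries below it. The log2 fold change was -1.07 ± 0.44. The call was lost without CON replicate 2 (-0.73) or 3 (-0.96), and also without AFB1_CUR replicate 1 (-0.97), 2 (-0.92), 3 (-1.01) or 5 (-0.98).

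Antioxidant enzymes and genes of AFB1 activation and detoxification were not called, in 0 of 25 and 0 of 16 members tested, with or without AFB1_CUR replicate 2. The latter list holds receptors and transporters beside enzymes. Estimates above 0 were 9 with and 12 without that library for the antioxidant enzymes (medians -0.07 and -0.04). For the AFB1 list they were 6 and 8 (medians -0.16 and 0.00). SOD2, the mitochondrial superoxide dismutase, was at 93.6, 85.2, 100.4, 83.7 and 121 in CON and at 132, 113, 114, 139.6 and 148 in AFB1_CUR. Its lowest AFB1_CUR libraries lay below the highest CON library, and the log2 fold change of 0.35 (95% interval 0.03 to 0.67; adjusted p = 0.780 by edgeR) was short of the fold limit. Without AFB1_CUR replicate 2 it was 0.44, also short of it. CAT, the catalase, had a log2 fold change of -0.11 with an interval of -0.82 to 0.61. AKR7A2, which reduces the aldehyde formed from AFB1, had -0.31 and AHR, the aryl hydrocarbon receptor, 0.38, neither past the fold limit. CYP3A24 and CYP1A1, of the P450 families that activate AFB1, were below the FPKM filter.

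Endoplasmic reticulum stress genes were tested in 29 members, of which 0 were called. Estimates were above 0 for 25 of the 29, with a median of 0.14, and for 24 without AFB1_CUR replicate 2, with the same median and 0 called. Over all genes tested, 49.32% of estimates were above 0. Members of such a list can move together from library to library, so the 25 are not independent counts. The sensor gene ATF6 had a log2 fold change of 0.06 (-0.16 to 0.28), ERN1, which encodes IRE1, 0.18 (-0.15 to 0.51), and the chaperone HSPA5, known as BiP, 0.13 (-0.24 to 0.50). DDIT3, the apoptosis factor CHOP, had 0.26 (-0.13 to 0.66). EIF2S1, the translation factor eIF2 alpha on which the PERK branch acts, had 0.30 (0.03 to 0.58; adjusted p = 0.780 by edgeR), and PPP1R15A, which brings a phosphatase to it, -0.28. None reached the fold limit.

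A list of 36 genes was drawn up around the genes and pathways of the study for the kidney. The study's text does not name some of them, among them GCLC, GCLM and GPX3. Of the 36, 33 were tested, 0 were called with or without AFB1_CUR replicate 2, and 19 had an estimate above 0 (21 without it). Since the study chose its genes on animals of the same trial, the list is not independent evidence of a direction. Estimates for apoptosis genes included BAX, a pore former of the mitochondrial membrane, at -0.12 (-0.47 to 0.22) and its antagonist BCL2 at -0.17 (-0.55 to 0.21). The inflammatory cytokine genes IL1B, IL6 and TNF were below the filter, with FPKM no higher than 1.24, 0.259 and 1.10 in any of the 10 libraries. The subunit genes RELA and NFKB1 of NF-kB had log2 fold changes of 0.04 and 0.14. The largest among the tested members in absolute size was EIF2AK2 at -0.62 (-1.97 to 0.74), an interferon-induced kinase described with its list below.

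Immediate early genes, which growth factors, stress and handling induce within minutes, were lower in part. Of 26 tested, 3 were called lower (CCN1, NR4A1 and ATF3) and 7 had an estimate above 0, with a median log2 fold change of -0.23. Without AFB1_CUR replicate 2, 5 were called lower (CCN1, FOS, JUN, NR4A1 and CCN2) and 2 were above 0, with a median of -0.30. Among all genes tested, 0.576% were called lower with 10 libraries and 0.530% without AFB1_CUR replicate 2. Estimates above 0 made up 49.32% and 50.82% of all genes. The number of these 26 genes called lower moved with the library left out, from 0 to 5 in the fit of 10 libraries. With AFB1_CUR replicate 2 and 1 library more left out, it ran from 1 to 11. It moved with the method too. With 10 libraries limma on log2(FPKM + 1) or log2(FPKM + 0.1) called CCN1 alone, a replicate block 2 genes, DESeq2 3 and voom with quality weights 8. In the 9 libraries limma and the block called only FOS and CCN1, voom called 7 and DESeq2 9. CCN1, a matricellular target of YAP and serum response factor, was at 36.8, 43.9, 58.2, 14.4 and 17.1 in CON and at 17.5, 31.7, 8.48, 8.29 and 11.1 in AFB1_CUR. Its log2 fold change was -1.24 ± 0.44, and -1.60 without AFB1_CUR replicate 2. FOS, the AP-1 subunit, was at 8.93, 23.4, 56.1, 6.05 and 6.36 in CON and at 9.02, 24.3, 4.89, 3.07 and 2.65 in AFB1_CUR. The spread within CON was wide for both genes, with CON replicate 3 the highest and CON replicates 4 and 5 the lowest.

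Single libraries moved this group in both directions. CON replicate 3 had the highest level of the list (3.87 on the log2(FPKM + 1) scale, against 2.80 to 3.5 in the other CON libraries), and NR4A1 was at 14.3 there and at 1.36 to 5.14 in the rest of CON. Without CON replicate 3, 0 of the 26 genes were called, 13 estimates were above 0 and the median was -0.02. NR4A1 then had a log2 fold change of -0.48, ATF3 of -0.35 and CCN1 of -0.96, none called. With both CON replicate 3 and AFB1_CUR replicate 2 left out, CCN1 (-1.31) and FOS (-1.16) were called lower. With CON replicate 2 and AFB1_CUR replicate 2 left out, JUN (-0.55), NR4A1 (-1.53) and CCN2 (-0.60) missed the call and 3 genes were called lower. Leaving out CON replicate 5 instead raised the calls, to 5 of 26 with AFB1_CUR replicate 2 (median -0.32) and to 10 without it (median -0.42). Without CON replicate 4 and AFB1_CUR replicate 2 there were 11, and without AFB1_CUR replicates 2 and 4 there were 2. Without AFB1_CUR replicates 2 and 5 CCN1 alone was called. With AFB1_CUR replicate 2 kept, 1 gene, CCN1, was called without AFB1_CUR replicate 3 or 4, and 2 genes each without CON replicate 2 or AFB1_CUR replicate 5. NR4A1 also missed the call without CON replicate 2 (-1.37) or AFB1_CUR replicate 1 (-1.42), 3 (-1.33), 4 (-1.23) or 5 (-1.25). ATF3 also missed it without AFB1_CUR replicate 2 (-0.69), 3 (-0.66) or 4 (-0.68).

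Interferon-induced genes spread widely within the CON group. Of 27 tested, 0 were called in the fit of 10 libraries, where 4 estimates were above 0 and the median was -0.40. Without AFB1_CUR replicate 2, ISG15, MX1, MX2, IRF7 and ISG20 were called lower and 1 estimate was above 0, with a median of -0.76. Among all genes tested, 0.530% were called lower in that fit. Estimates above 0 made up 49.32% of all genes with and 50.82% without AFB1_CUR replicate 2. The interferon calls depended on the method. With 10 libraries DESeq2 called MX2 and RIGI lower, voom with quality weights ISG20 and edgeR with no filter MX2, and the median by limma was -0.21 on log2(FPKM + 1) and -0.23 on log2(FPKM + 0.1). In the 9 libraries limma called ISG20 alone (medians -0.40 and -0.44), and voom and a replicate block called IFIT2 and ISG20 (-0.41 and -0.39), so that ISG15, MX1, MX2 and IRF7 lost the call, while DESeq2 called 8. ISG15, a ubiquitin-like modifier of antiviral defense, was at 1.89, 13.3, 2.28, 0.406 and 75.7 in CON and at 1.03, 24.2, 0.146, 0.825 and 2.53 in AFB1_CUR. MX1, an antiviral GTPase, was at 4.24, 34.3, 6.33, 4.08 and 117 in CON and at 5.49, 37.7, 3.01, 3.81 and 7.04 in AFB1_CUR. High values thus lay in CON replicates 5 and 2 and in AFB1_CUR replicate 2. EIF2AK2, the double-stranded RNA sensor PKR, followed the same order, at 31.8 in CON replicate 5 and 2.99 to 8.33 in the other CON libraries. Without CON replicate 5, 0 of 27 genes were called, 15 estimates were above 0 and the median was 0.03. With AFB1_CUR replicate 2 also left out, the median was -0.29 and 1 gene, MX2 (-1.81), was called. The calls rose without CON replicate 1, 3 or 4. With 10 libraries MX2 and RIGI were then called lower. With AFB1_CUR replicate 2 also left out, 9 genes were called lower without CON replicate 1, 10 without CON replicate 3 (median -0.96) and 12 without CON replicate 4. The count was 3 without CON replicate 2, 2 without AFB1_CUR replicate 3 or 4 and 7 without AFB1_CUR replicate 5. IRF7 (-1.16) and ISG20 (-1.06) also missed the call when CON replicate 2 and AFB1_CUR replicate 2 were left out.

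**Figure D5:**
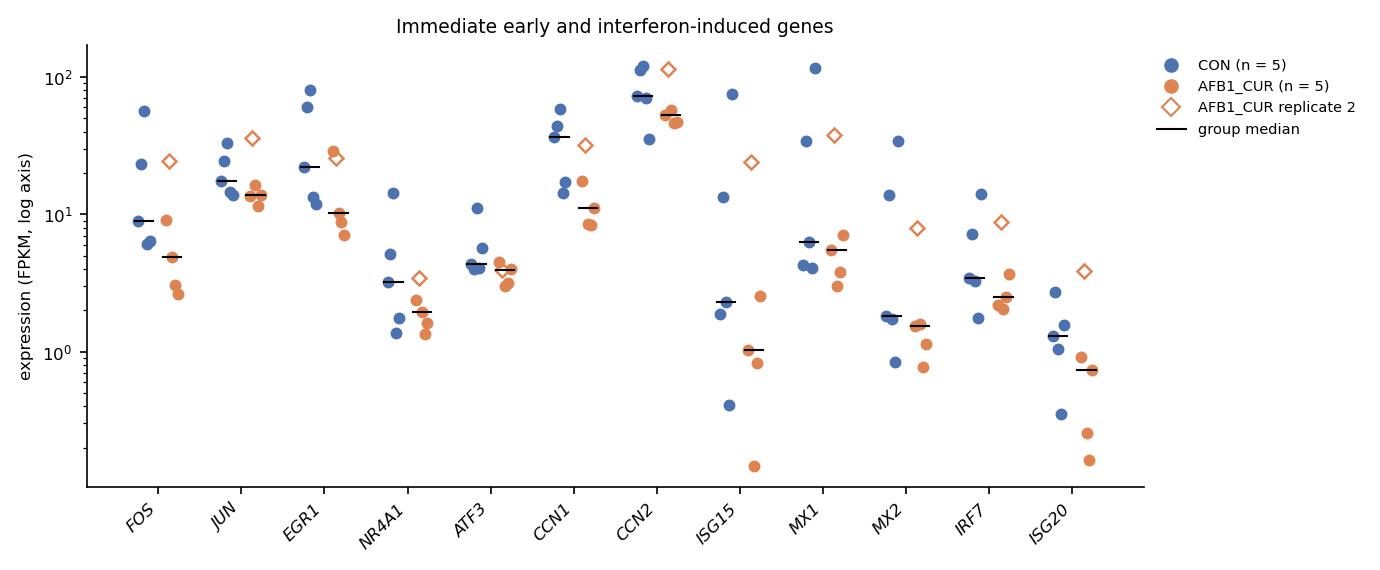
FPKM (log axis) of 7 immediate early genes (FOS to CCN2) and 5 interferon-induced genes (ISG15 to ISG20) in each CON (blue) and AFB1_CUR (orange) library, with AFB1_CUR replicate 2 as an open diamond and black bars for group medians. The highest CON points come from CON replicate 3 for FOS (56.1) and from CON replicate 5 for ISG15 (75.7) and MX1 (117), and the diamond lies above the other AFB1_CUR points for each interferon-induced gene.

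No member of the immune cell marker lists was called higher in edgeR's fit without AFB1_CUR replicate 2. All 11 pan-leukocyte markers had estimates above 0 (median 0.83, 0 called), and without that library 10 did, with a median of 0.16 and 0 called. Among all genes tested, 49.32% had an estimate above 0 with that library and 50.82% without it. The shares called higher were 1.01% and 0.382%. With 10 libraries DESeq2 called 5 of the 11 higher and a replicate block 2, and leaving out 1 library called up to 3. JCHAIN, the joining chain of polymeric immunoglobulins, was at 28.1, 27.2, 24.7, 18 and 6.27 in CON and at 22.5, 856, 18.5, 64.3 and 26.6 in AFB1_CUR. The log2 fold change of 3.04 ± 1.06 became 0.65 without AFB1_CUR replicate 2. Among plasma cell genes, MZB1 went from 2.59 to 0.15 and DERL3 from 1.97 to 0.31 on the log2 scale when that library was left out. The surrogate light chain family gene VPREB3 went from 2.18 to 0.21. T cell and NK cell genes showed the same dependence, with IL7R going from 1.45 to 0.61, CD8B from 1.26 to 0.52 and KLRK1 from 0.77 to 0.54. Without the library 0 of 17 tested T cell and NK cell markers and 0 of 6 plasma cell markers were called. Of the macrophage and dendritic cell genes, CLEC9A, a receptor of cross-presenting dendritic cells, went from 0.99 to 0.70 and MRC1, the mannose receptor, from 0.85 to 0.54. The costimulatory gene CD86 went from 1.07 to 0.67, and none of these 10 genes was called without AFB1_CUR replicate 2. Method and further libraries bore on these calls. With 10 libraries limma on log2(FPKM + 1), voom and a replicate block called 0 of the plasma cell markers and DESeq2 called 1. T cell and NK cell markers called were 0 by limma on log2(FPKM + 1) and by voom, and 5 by DESeq2. CLEC9A, FLT3 and MRC1 were called higher when CON replicate 2 was left out beside AFB1_CUR replicate 2, MRC1 without CON replicate 1, CLEC9A without AFB1_CUR replicate 1 and KLRK1 without AFB1_CUR replicate 4. CLEC9A was also called by voom with quality weights and by limma on log2(FPKM + 0.1). With AFB1_CUR replicate 2 kept, some genes missed the call without another library. These were MZB1 without CON replicate 1 (2.70), 3 (2.68), 4 (2.38) or 5 (2.32) and DERL3 without CON replicate 1 (1.98), 2 (2.17), 3 (2.11), 4 (1.9) or 5 (1.73). VPREB3 missed it without CON replicate 3 (2.14), 4 (2.15) or 5 (2.11). IL7R missed it without CON replicate 1 (1.49), 3 (1.57), 4 (1.25) or 5 (1.26) or AFB1_CUR replicate 3 (1.5). CD8B missed it without CON replicate 2 (1.29), 3 (1.35), 4 (1.12) or 5 (1.11) or AFB1_CUR replicate 5 (1.29). KLRK1 did so without CON replicate 4 (0.69) or 5 (0.63) or AFB1_CUR replicate 3 (0.74), MRC1 without CON replicate 3 (0.84) or 4 (0.78), and CD86 without CON replicate 4 (0.89) or 5 (0.96) or AFB1_CUR replicate 4 (1.0).

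Stromal and cell cycle genes depended on the same library. Of 27 extracellular matrix genes 24 had an estimate above 0 (median 0.27), and without AFB1_CUR replicate 2 18 did (median 0.06). Among all genes tested, 49.32% had an estimate above 0 with that library and 50.82% without it. With the library 1 of the 27 matrix genes was called higher, and without it 1 was called lower. FBN1, the microfibril protein fibrillin-1, was at 4.53 to 7.45 in CON, 6.45 to 7.19 in 4 AFB1_CUR libraries and 20.3 in AFB1_CUR replicate 2. On the log2 scale the fold change was 0.63, and 0.25 without that library. MFAP5, another microfibril protein, was at 48.3 there and at 0.702 to 2.03 in the other AFB1_CUR libraries, so that its log2 fold change of 2.83 became 0.06. All 20 tested cell cycle genes had estimates above 0, with a median of 0.52 that was 0.00 without AFB1_CUR replicate 2. By edgeR 0 were called in either fit, while with 10 libraries DESeq2 called 3 higher and leaving out 1 library called up to 2. Single members of other lists behaved alike. APAF1, the apoptosome scaffold, went from 0.67 to 0.46, DCDC2, a ciliary doublecortin protein of the tubular injury list, from 0.68 to 0.51, the complement receptor C5AR1 from 1.12 to 0.59 and the ferroxidase ceruloplasmin, CP, from 1.31 to 0.27, none of them then called. Calls in this group were also lost without other libraries, for FBN1 without CON replicate 1 (0.62), 3 (0.63), 4 (0.62) or 5 (0.55), for MFAP5 without CON replicate 2 (2.59), 3 (2.78) or 5 (2.79) and for DCDC2 without CON replicate 4 (0.58). The same held for CP without CON replicate 2 (1.28), 3 (1.34), 4 (1.22) or 5 (1.25). For C5AR1 it held without CON replicate 1 (1.23), 3 (1.23), 4 (0.93) or 5 (0.92) or AFB1_CUR replicate 3 (1.21) or 5 (1.16).

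The mitochondrial respiratory chain and gluconeogenesis lists moved the opposite way with that library. Of 25 respiratory chain genes 2 had an estimate above 0 with it and 16 without it (medians -0.09 and 0.02). Of 17 gluconeogenesis genes the counts were 2 and 11 (medians -0.12 and 0.05). Among all genes tested, 49.32% had an estimate above 0 with the library and 50.82% without it. No member of either list was called in either fit. Among 18 circadian clock genes 1 was called with and 0 without AFB1_CUR replicate 2. NR1D1, the repressor REV-ERB alpha, was the one called, lower at -0.83 ± 0.34, with FPKM of 23.7, 13.3, 11.1, 12.9 and 5.94 in CON and 7.63, 8.99, 6.63, 4.52 and 12.1 in AFB1_CUR. It missed the call without CON replicate 1 (-0.51) or any 1 of AFB1_CUR replicates 1 (-0.85), 2 (-0.83), 3 (-0.79) and 4 (-0.70).

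CYP24, the mitochondrial enzyme that inactivates vitamin D, lies outside the rule for named genes and was chosen after its values were seen. Its FPKM was 1.03, 1.28, 1.24, 5.70 and 1.12 in CON and 11.8, 6.84, 3.62, 2.42 and 6.44 in AFB1_CUR. CON replicate 4 alone lay within the AFB1_CUR range, and the log2 fold change was 1.5 ± 0.58 with and 1.52 without AFB1_CUR replicate 2, called in both fits. It missed the call without CON replicate 1 (1.33), 2 (1.35), 3 (1.36) or 5 (1.34) or AFB1_CUR replicate 1 (1.08), and was at 2.36 without CON replicate 4. The list for vitamin D, calcium and phosphate, which does not hold it under this symbol, gave 1 call, SLC34A3, of 16 tested, and 0 without AFB1_CUR replicate 2.

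The genes named above were also compared between AFB1_CUR and AFB1 alone, in 1 fit with 14 libraries. AFB1 replicate 1 was left out because its hepatocyte list was at 10.6 against at most 2.65 in the other 14 libraries. The genes were chosen on the same AFB1_CUR libraries, so this comparison is not independent of the first. In it, 54 of all genes were called higher in AFB1_CUR (0.421%) and 61 lower (0.475%), and 4 of the 83 named genes tested were called. That number was 10 without AFB1 replicate 2, 7 without AFB1_CUR replicate 2 and 4 to 6 without any other of the AFB1 and AFB1_CUR libraries. RNASE12 and ASGR2 were called in each of these fits, LOC121816057 missed the call without AFB1 replicate 2 or 4, and MFAP5 missed it without AFB1_CUR replicate 2. RNASE12 was at 8.56, 8.68, 7.27 and 7.09 in AFB1 replicates 2 to 5, above every AFB1_CUR library, with a log2 fold change of -0.87 (AFB1_CUR minus AFB1; adjusted p = 1 by edgeR). ASGR2 was at 15.5, 11.7, 16.9 and 6.59 in AFB1, with a log2 fold change of -1.23. LOC121816057 had -1.30, and MFAP5, high in AFB1_CUR replicate 2 alone, 3.38. For RNASE12 the CON and AFB1 libraries thus lay on the same side of the AFB1_CUR libraries.

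The remaining 79 named genes were not called with these 14 libraries, but some were when 1 library was left out. Without AFB1 replicate 2, GPM6B (0.79), ST8SIA4 (0.89), SCARA5 (1.75), CCN1 (1.05), PFKFB3 (0.61) and MRC1 (0.83) were called higher in AFB1_CUR and BNIP3 (-0.60) lower. With AFB1_CUR replicate 2 left out, UBXN11 (-0.61), JCHAIN (-2.30), MZB1 (-3.61) and DERL3 (-2.21) were called lower in AFB1_CUR. When AFB1 replicate 2 was left out instead, JCHAIN (2.05), MZB1 (1.38) and DERL3 (1.13) were above 0 and UBXN11 was at -0.49, none called. With all 14 libraries JCHAIN was at 0.09, MZB1 at -1.16, DERL3 at -0.54 and UBXN11 at -0.56. AFB1 replicate 2 itself held high leukocyte marker levels. On the log2(FPKM + 1) scale its plasma cell list was at 4.45 against 2.21 to 2.98 in AFB1 replicates 3 to 5, its B cell list at 2.30 against 0.53 to 0.72 and its pan-leukocyte list at 4.71 against 3.01 to 3.67. FPKM of JCHAIN was 559 there and 16.8 to 82.3 in AFB1 replicates 3 to 5. With both that library and AFB1_CUR replicate 2 left out, a fit added after the data were seen, JCHAIN (-0.35), MZB1 (-1.07), DERL3 (-0.54) and UBXN11 (-0.54) were not called. The 5 named genes called in that fit were RNASE12, ASGR2, BNIP3, GPM6B and SCARA5. GPM6B, CCN1, UBXN11 and SLC47A2 were also called in single fits without another library. ANPEP was at 41.2, 89.4, 34.7 and 87.2 in AFB1, with a log2 fold change between AFB1_CUR and AFB1 of -0.11, and SLC34A3 was at 41.4, 76.6, 38.6 and 48.9, with 0.04. SCPEP1 had 0.17 and NRAS 0.28. GPM6B had 0.57, just short of the fold limit. A missing call does not show that these levels were the same in both groups. CCN1 was at 6.39 to 11.6 in AFB1, with a log2 fold change of 0.86, which was not called.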

How the data were processed

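Poly(A) RNA of sheep kidney was sequenced as paired reads from libraries that keep strand, and whether strand was used in counting is not given in the sources used here. Per the labels, the submitters' processing notes name cutadapt 1.9, HISAT2 2.2.1, StringTie 2.1.6, DESeq2 and edgeR. The genome build is not stated. The file the authors deposited holds 2 columns a library, read counts and FPKM values (fragments scaled to gene length and library size), for 25592 genes. Start and end were those of RefSeq's sheep assembly ARS-UI_Ramb_v3.0 for 99.6% of the 24947 symbols found there, and coordinates are printed as deposited, with the chromosome from that table. Titles gave the group, since the treatment field counts upward within a group.

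The deposited counts were tested with edgeR 4.0.16 (R 4.3.3; glmQLFit and glmQLFTest after TMM) in the 10 libraries, in genes with FPKM of at least 1 in at least 5 of them. Genes were called at p under 0.05, unadjusted, together with a change of more than 1.5-fold, as the study screened its genes. The adjusted p is Benjamini-Hochberg over 12839 genes. The SE is the log2 fold change divided by the root of F. FPKM means, lists as mean log2(FPKM + 1) and ranges describe levels. DESeq2 1.42.0, limma 3.58.1 on log2(FPKM + 1) and log2(FPKM + 0.1), voom with quality weights, other scaling and filters, a replicate block, 14 or 15 libraries in 1 fit and leaving out each library were alternatives. The fit was also run on simulated counts, and the outcome is not given here. Replicates differed by more than counting noise, so none was a repeated deposit. Where libraries are not labelled as separate animals, p-values cover the spread between these libraries.

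Named genes were the 10 of smallest p in each direction called with and without AFB1_CUR replicate 2 that carry a symbol. Added to these were up to 5 a direction with the largest change and no overlap of groups. Called members of the gene lists (up to 4 a list) were named too, as was the kidney list drawn up around the study. Members, lists and tests were chosen with earlier results of these data known. Lists are described by counts and medians, with no set test. No promoter or protein sequences were used here. 1 named gene is not reported here.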

Additional observations from a re-analysis of the deposited data

Results flagged for a closer look

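Among the named genes, 172 groups of 5 libraries were examined for a library far from the others. The rule was a gap to the nearest other above 0.71 of the whole range of its group (Dixon's limit at 95%). That limit is for normally distributed values, which FPKM need not be, so no chance rate is given. In 26 groups the highest library lay that far from the others, and in 21 of them it was AFB1_CUR replicate 2. Part of this restates how the genes were named, so the count is not set against chance: 14 of the 21 are among the 22 genes called only with that library. Another 1 is among the 28 genes called with and without it, and 6 are among the 36 not called with 10 libraries. Values are FPKM.

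In AFB1_CUR replicate 2, immune genes stood apart at 856 for JCHAIN, 46.5 for MZB1, 41.2 for DERL3, 38.0 for VPREB3, 16.9 for IL7R, 16.8 for CD8B, 10.3 for C5AR1 and 6.84 for MRC1. Matrix and iron-handling genes stood apart at 48.3 for MFAP5, 20.3 for FBN1, 13.9 for CP and 10.7 for SCARA5. Inflammatory signaling genes were at 18 for NFKB1, 13.9 for IKBKB, 3.59 for IL18, 1.10 for TNF and 0.259 for IL6, of which TNF and IL6 were below the filter in the test. The remaining genes high in this library were TRAM1 at 10.2, PFKFB3 at 7.13, APAF1 at 2.67 and DCDC2 at 2.67.

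In AFB1_CUR replicate 4, OSGIN1 was at 108, against 34.3 to 41.2 in the other AFB1_CUR libraries. In CON, ATF3 was at 11.1 in replicate 3, GPX3 at 13887 in replicate 4, EIF2AK2 at 31.8 in replicate 5 and CXCL9 at 19.1 in replicate 2, the highest value of its group in each case.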

How the results depend on the processing

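The 204 calls of the 10 libraries became 969 with no filter on low values, 563 with filterByExpr, 93 by limma on log2(FPKM + 1) and 121 in a fit of 15 libraries. They ranged from 117 to 331 when 1 library was left out. Without AFB1_CUR replicate 2, the 117 calls became 621 with no filter, 344 with filterByExpr, 61 by limma on log2(FPKM + 1) and 191 by voom with quality weights, and ranged from 122 to 221 when 1 more library was left out. More genes were tested with no filter and with filterByExpr than in the main fits, and the cause of the other shifts was not tested. Calls at an adjusted p under 0.05 were 0 by edgeR, 1 by DESeq2, and 2 by DESeq2 without AFB1_CUR replicate 2 (PSMG3 and LOC105616883). Voom with quality weights turned the split from 130 higher and 74 lower to 75 and 106. Leaving out AFB1_CUR replicate 2 turned it to 49 and 68. That split was 91 and 60 with a replicate block, 89 and 58 with CON replicate 2 also left out and 123 and 98 with CON replicate 5 also left out, and 63 and 53 by limma on log2(FPKM + 0.1). The 4 named genes called against AFB1 ranged from 4 to 10 when 1 library was left out, with 10 without AFB1 replicate 2 and 7 without AFB1_CUR replicate 2. Of 49 gene lists, the number of calls moved by over 1.5 times in 18 with no filter, 14 with filterByExpr, 11 by DESeq2, 14 by limma on log2(FPKM + 1), 12 by limma on log2(FPKM + 0.1), 16 by voom, 12 with a replicate block and 2 with DESeq2's size factors, all with 10 libraries.

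With a replicate block the counts were 243 with and 151 without AFB1_CUR replicate 2. In the latter the block called 3 macrophage and dendritic cell markers and 1 T cell and NK cell marker higher (0 without the block). The sources used here do not say that the numbers pair animals. Deviations of same-numbered libraries correlated at -0.301, 0.389, 0.077, 0.137 and 0.045, and those of differently numbered libraries at -0.368 to 0.396. Such correlations cannot show whether animals were paired.

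For single named genes, no direction among called genes turned under the 20 alternatives to the fit of 10 libraries. Under these alternatives, 225 values of called genes missed the call. Alternatives to the fit without AFB1_CUR replicate 2 and to the comparison with AFB1 were not tallied this way. In the comparison with AFB1, JCHAIN, MZB1 and DERL3 changed direction with the library left out. Whether depth limits the genes of low count was not tested. Genes under the FPKM filter, such as IL6 and TNF, were not tested.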
